A study of Danio rerio with 6 samples.

Results

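The genes described here are the transcription factors of blood stem and progenitor cells gata2a, gata2b, tal1, lmo2, runx1, myb, meis1b, gfi1aa, mycn and etv6. They were listed by name, and 9 of the 10 were found among the 32267 features of the deposited table. For gata2a and meis1b the match went through the older names gata2 and meis1 that RefSeq gives them, and etv6 was not analysed here. RNA was taken from unsorted whole kidney marrow cells of zebrafish, a tissue in which adult fish make their blood. The 3 control libraries (genotype wt) and the 3 il7 mutant libraries all came from the strain TLEK, and the mutant fish lack exons 2 to 4 of il7, which encodes the lymphocyte growth factor interleukin 7, through an internal deletion. The study asked how il7 acts in lymphocyte development. The labels do not say how many fish stand behind a library, nor their age, so a p-value measures only the spread between these libraries, which may be technical.

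Blood stem cells keep their identity through a small set of factors that bind the same regulatory regions together. GATA2, the helix-loop-helix factor TAL1, its bridging partner LMO2 and RUNX1 act as one group in stem cells, and TAL1 and LMO2 go on to work with GATA1 in red cell precursors. In zebrafish, runx1, gata2b and myb mark the blood stem cells that arise from the wall of the dorsal aorta and later settle in the kidney marrow.

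Levels are given as normalized counts, which are reads per gene divided by a size factor per library. They were not divided by gene length, so they were compared between libraries and not between genes. The libraries held between 34496353 and 46120889 reads in genes, as inferred from the steps between values. The targeted gene il7 stood at 89.8, 61.6 and 57.7 normalized counts in the controls and at 16.5, 17.8 and 4.00 in the mutants, so each mutant library was below every control library. Oocyte transcripts were far more abundant in control 1 and il7 mutant 2 than elsewhere. The sums over 16 oocyte markers were 348748 and 165784 normalized counts there, against 295 to 1218 in the other libraries. The summed erythroid, endothelial, kidney tubule, neutrophil and lymphocyte markers were above 0 in every library, the last at 3845 to 8301. These sums hold different genes, so they do not rank the cell types. The factors below are known from several of these cell types. In an unsorted sample, fewer cells of a type and less RNA per cell cannot be told apart.

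Of the 9 factors, mycn was the only one whose 3 mutant libraries all lay above the 3 control libraries, at about 2.17 times the control mean. The genotypes overlapped for the other 8, and none passed the adjusted test. In limma, a linear model fitted across all genes, 0 of the 9 were called at an adjusted p under 0.05, as were 0 of 20782 fitted genes (0%). The targeted gene il7 was not called either, at an unadjusted limma p of 0.00703, although it was lower in each mutant library. The authors' deposited table gives il7 an adjusted p of 0.0403. A missing limma call is thus no evidence that a gene is unchanged. At an unadjusted p under 0.05, 1 of 9 was higher, against 282 of all fitted genes (1.36%), and 0 of 9 were lower, against 441 (2.12%). The mutants lay wholly above the controls for 1 of 9 factors, against 3.51% of all fitted genes, and wholly below for 0 of 9, against 4.44%. At the same adjusted threshold 112 genes are called in the authors' deposited table (0.521% of those with a value), and 0 of the 9 are among them. That table gives mycn an adjusted p of 0.341 and the other 8 an adjusted p of 1.00.

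By sign alone, 8 of the 9 factors had a positive log2 change (mutant minus control on log2(normalized count + 1)), against 45.9% of all fitted genes. The median was 0.26 over the factors and −0.04 over all fitted genes. Without the oocyte-rich control 1 and il7 mutant 2, 6 of 9 were positive, against 48.2% of all fitted genes. The medians were then 0.28 over the factors and −0.02 over all fitted genes. The median over the factors was 0.02 without control 1 alone and 0.54 without control 2. The sign count also depends on the scale. The authors' deposited table lists gata2a (−0.01), gata2b (−0.30) and runx1 (−0.22) as negative and the other factors as positive.

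**Figure D1:**
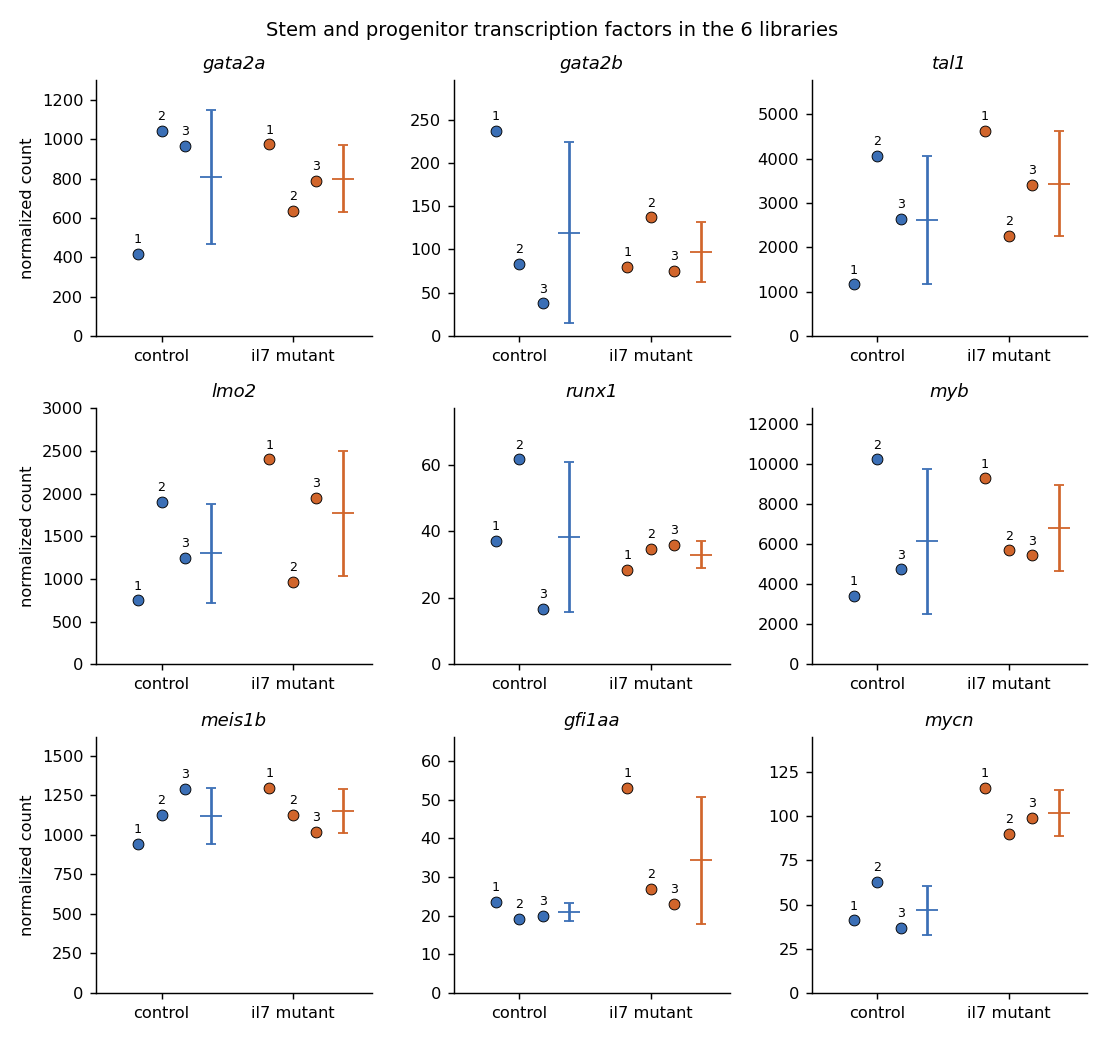
Normalized count (y axis, linear, from 0) of each of the 9 factors in the 3 control and 3 il7 mutant libraries. Numbers are replicates and the bar beside each group is its mean ± SD (n = 3). The groups are apart for mycn, from 36.6 to 62.6 in controls and from 90.2 to 116 in mutants, and overlap in the other 8 panels.

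The MYC family factor mycn (ENSDARG00000006837) drives growth and division of progenitor cells. Its normalized counts were 41.0, 62.6 and 36.6 in control 1, 2 and 3 and 116, 90.2 and 98.9 in il7 mutant 1, 2 and 3. The lowest mutant library was thus above the highest control library. The means were 46.7 ± 13.9 and 102 ± 12.9 (SD, n = 3), and mycn had a log2 change of 1.13 (SE 0.38, 95% interval 0.21 to 2.06) with a limma adjusted p of 1.00 over all genes. A two-sided exact permutation test of mycn gave p = 0.1, the smallest that 3 against 3 libraries can give. For mycn the authors' deposited table lists a log2 fold change of 1.12.

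Read numbers were inferred from the steps between values, and the inference did not pass its check in control 2, il7 mutant 2 and il7 mutant 3, where 1 read is close to 1 normalized count. By it the mycn signal rests on few reads, between 33 and 62 per control library and between 91 and 99 per mutant library. Exact Poisson intervals at 95% on these inferred reads cover counting error only. They ran from 48.0 to 80.3 normalized counts in control 2 and from 72.6 to 111 in il7 mutant 2, the closest libraries of the 2 groups. These intervals overlap, which is no test of the difference between the libraries. The log2 change stayed between 0.98 and 1.36 when any 1 library was left out. It was 1.14 without both oocyte-rich libraries. The unadjusted limma p of mycn was 0.0234 with all libraries. It was 0.0513 without control 1, 0.0663 without control 3, 0.0808 without il7 mutant 1, 0.0590 without il7 mutant 3 and 0.0570 without both oocyte-rich libraries, and stayed under 0.05 without control 2 (0.0179) or il7 mutant 2 (0.0482). Cell cycle genes, whose sum was 193245 and 128637 in control 1 and il7 mutant 2, were at 65806 and 44866 in the other controls and at 51299.7 and 35226 in the other mutants. Among them 7 of 21 fitted genes had a positive log2 change, against 45.9% of all fitted genes, and 0 were called, as over all fitted genes. Without both oocyte-rich libraries 10 of 21 cell cycle genes were positive, against 48.2% of all fitted genes.

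In a list of partner and paralogue factors the MYC family genes myca and mycb matched no feature. The list also held another MYC family gene, mych, whose values lay in the opposite direction. It had 3695, 5985 and 5259 normalized counts in the controls and 1563, 1883 and 1659 in the mutants. Every mutant library was below every control library, and the means were 4979.6 ± 1170.1 and 1702 ± 164 (SD, n = 3), a ratio of 0.34. The log2 change of mych was −1.52 (SE 0.24), with a limma adjusted p of 0.556 over all genes and a range of 0.0707 to 1.00 over the alternative settings. The authors' deposited table lists mych at −1.55 on the log2 scale, with an adjusted p of 3.0e-04. It was the 1 gene of the 39 partner and paralogue features with such a call there, where 0.521% of all genes with a value are called.

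The homeobox factor hhex, which acts in early blood, vessel and liver development, shared the direction of mycn. It stood at 87.4, 161 and 91.0 normalized counts in the controls and at 295, 240.0 and 223 in the mutants, with no overlap. The means were 113 ± 41.3 and 252 ± 37.6 (SD, n = 3), and the log2 change of 1.20 (SE 0.36) had a limma adjusted p of 1.00 (0.480 to 1.00 over the alternative settings). The authors' deposited table gives hhex 1.16 and an adjusted p of 0.266. Over the 6 libraries hhex was also the gene most like mycn in pattern among 13003 candidates. These had a symbol that is no clone name and a mean of at least 100 normalized counts. The root mean square difference of their centred log2 values was 0.11. The next was SLC16A13, a gene of the monocarboxylate transporter family, at 0.17. Such nearest genes, here and below, are the smallest of many distances over 6 libraries, and no reference distance was computed.

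Markers of vessels and liver were read beside hhex and mycn. Summed over 16 endothelial markers, none of them at 0, the level was 34718 to 61060.1 in the controls and 44260.2 to 56483 in the mutants, which overlap. Of these markers 10 of 16 had a positive change, against 45.9% of all fitted genes. Without both oocyte-rich libraries 8 of 16 were positive, against 48.2% of all fitted genes. With all libraries 2 of 16, sox7 and sox18, lay apart as higher, against 3.51% of all fitted genes. They encode SOX factors of vessel development and were named after their values were seen. The sox7 values were 314, 392 and 399 in the controls and 903, 1111 and 639 in the mutants. The sox18 values were 292, 565 and 508 in the controls and 1920.3, 958 and 1202 in the mutants. The limma adjusted p was 0.985 for sox7 and 1.00 for sox18, whereas the authors' deposited table gives them 0.0381 and 0.0657. Summed over 14 liver markers, of which 1 was at 0 in a library, the level was 2007, 3782 and 18251 in the controls and 30994, 8155 and 17414 in the mutants. In control 3 and il7 mutant 1 most of the liver sum was apoa2, at 14824 and 27903. In il7 mutant 1, where hhex and mycn were highest, apoa2 and serpina1 were the only liver markers above all controls. Their level in that library was 27903 and 13.0. As an example of the others, tfa was at 106, 187 and 173 in the controls and 131, 1393 and 1139 in il7 mutant 1, 2 and 3. The liver markers had a median log2 change of 2.39, and 13 of 14 were positive, against 45.9% of all fitted genes. The liver list was added after the values were seen, so these shares describe the list and test nothing. Their median was 1.42 without both oocyte-rich libraries. The part of liver or vessel RNA in the hhex and mycn values was not tested.

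**Figure D2:**
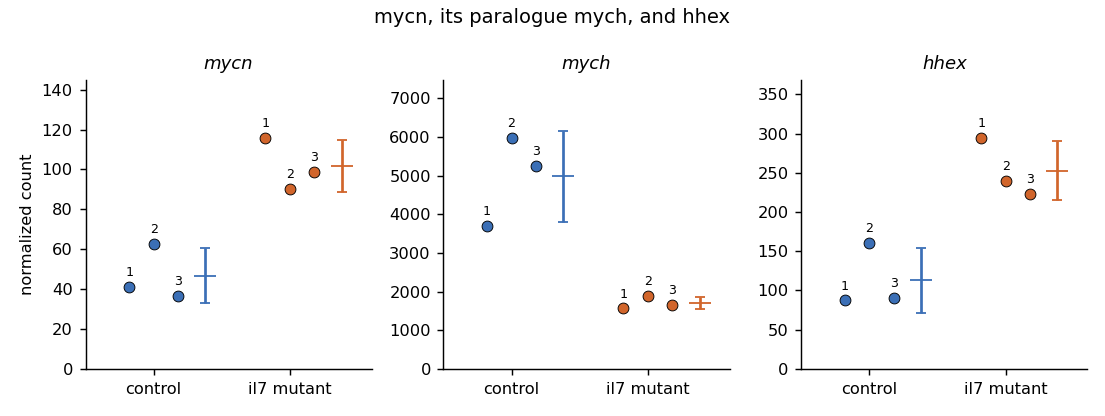
Normalized counts (y axis, linear, from 0) of mycn, mych and hhex in each library, numbered by replicate, with mean ± SD (n = 3). All 3 mutant libraries are above the controls for mycn and hhex and below them for mych, where the mutants lie between 1563 and 1883.

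TAL1 and LMO2 meet in one DNA-bound complex, where TAL1 contacts DNA and LMO2 bridges it to GATA factors. The tal1 (ENSDARG00000019930) values were 1162, 4055 and 2647 in control 1, 2 and 3 and 4626, 2257 and 3412 in il7 mutant 1, 2 and 3. The lmo2 (ENSDARG00000095019) values were 749.9, 1907 and 1247 in the controls and 2401, 965 and 1948 in the mutants. For both genes control 1 was the lowest library and il7 mutant 1 the highest, and the genotypes overlapped. Among the mutants il7 mutant 2 was the lowest, so in each genotype the oocyte-rich library was lowest for both genes. The log2 change was 0.50 (SE 0.51, 95% interval −0.71 to 1.72) for tal1 and 0.45 (SE 0.47, 95% interval −0.68 to 1.58) for lmo2, each with a limma adjusted p of 1.00. Without control 1 these became 0.01 and 0.10, without il7 mutant 1 0.26 and 0.18, and without both oocyte-rich libraries 0.28 and 0.49. Leaving out control 2 gave 0.91 for tal1 and 0.77 for lmo2, and leaving out il7 mutant 2 gave 0.78 and 0.83. Within the 9 factors, tal1 and lmo2 were the pair most alike over the 6 libraries, with a root mean square difference of 0.20 log2 units.

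Summed over 15 erythroid markers, the level was 78004 in control 1, 309875 in control 2 and 374185 in control 3. In il7 mutant 1, 2 and 3 it was 516592, 196958 and 425989.6. Most of each sum came from hbaa1, hbaa2 and alas2. By the erythroid sum control 1 was the lowest and il7 mutant 1 the highest, as for tal1 and lmo2. The liver sum had the same extremes, but in il7 mutant 1 it was mostly apoa2 (27903 of 30994 normalized counts). No other liver marker was highest in il7 mutant 1. Control 1 was likewise the lowest library for the thrombocyte, endothelial, kidney tubule and neutrophil sums and for the summed receptors and niche ligands. Of the erythroid markers 1, klf1, was listed at 0 in every library. Of 14 fitted erythroid markers 12 had a positive change, against 45.9% of all fitted genes, with a median of 0.48 against −0.04. Of these markers 0 were called, as over all fitted genes. The erythroid partner gata1a stood at 802, 2162 and 985 normalized counts in the controls and 2044, 1001 and 1439 in the mutants. Single markers differed in their highest library. It was control 2 for gata1a, epor, klf17 and slc25a37, and control 3 for hbaa2 and blf. For alas2, hbaa1, urod, hemgn and rhag it was il7 mutant 1, and for sptb, epb41b and tfr1a il7 mutant 3. The part of red cell precursors in the tal1 and lmo2 values was not tested.

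Among candidates outside the list, the genes most like tal1 in pattern were cpn2, which encodes a subunit of a plasma carboxypeptidase, with a root mean square difference of 0.05, and the chemokine gene ccl19a.1, at 0.14. The values of cpn2 were 183, 588 and 410.5 in the controls and 697, 359.9 and 545 in the mutants, lowest in control 1 and highest in il7 mutant 1.

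The paralogues gata2a and gata2b both encode GATA2, a zinc finger factor needed to form and maintain stem cells. In zebrafish gata2a is known mainly from endothelium and gata2b from the blood-forming part of it. The level of gata2a (ENSDARG00000059327) was 417, 1042 and 964 in the controls and 974, 637 and 788 in the mutants, with control 1 lowest and control 2 highest. Among the mutants il7 mutant 2 was the lowest, so for gata2a too the oocyte-rich library was the lowest of each genotype. The level of gata2b (ENSDARG00000009094) was 237, 82.9 and 37.7 in the controls and 80.2, 137 and 74.9 in the mutants, with control 1 highest and control 3 lowest. The paralogues thus ordered the libraries differently, with a root mean square difference of 1.22 log2 units between them.

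Between genotypes neither GATA2 gene stood apart. The log2 change was 0.07 (SE 0.41, 95% interval −0.90 to 1.05) for gata2a and 0.05 (SE 0.70, 95% interval −1.65 to 1.74) for gata2b, each with a limma adjusted p of 1.00. Without control 1 gata2a was at −0.35, and without il7 mutant 1 at −0.08. For gata2b leaving out control 1 gave 0.73, whereas leaving out control 3 gave −0.58, il7 mutant 2 −0.23 and control 2 −0.02. The sign of both genes thus rests on single libraries. For gata2b the ratio of means was 0.82 and the authors' deposited table gives −0.30, the opposite sign to the log2 scale used here.

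The highest gata2b values, 237 from 301 reads and 137 from 138 reads, came from control 1 and il7 mutant 2, the 2 oocyte-rich libraries. In each genotype the remaining libraries were lower, between 37.7 and 82.9. The gene most like gata2b in pattern was asxl1, a chromatin regulator, with a root mean square difference of 0.14. It stood at 6307 and 4207 in the oocyte-rich libraries and between 1263 and 2154 in the others. DENND6B followed at 0.15. The part of oocyte RNA in the gata2b values was not tested.

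**Figure D3:**
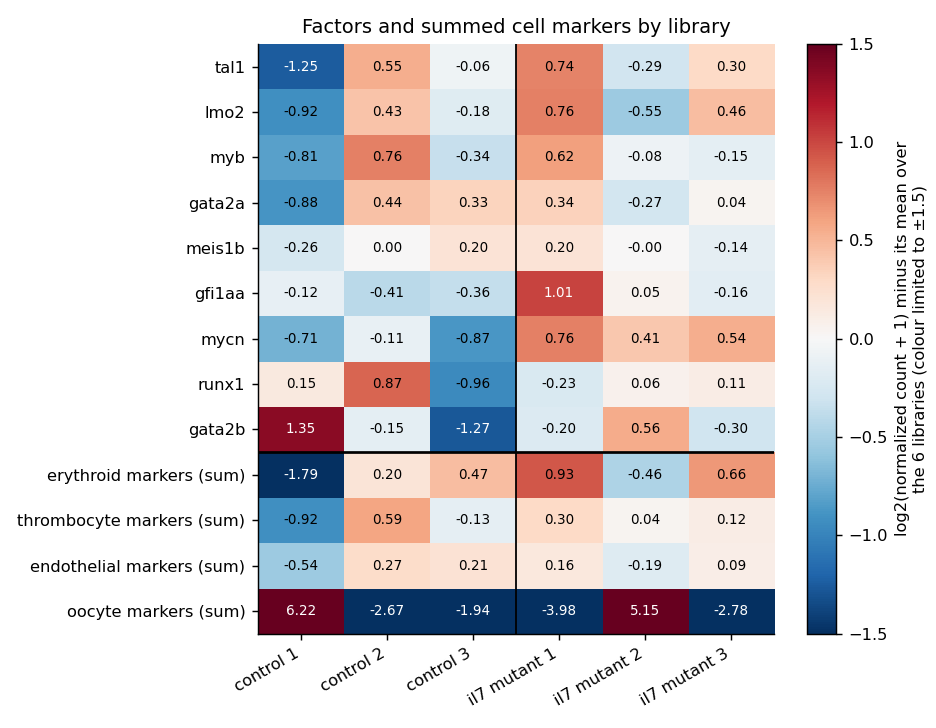
Each cell is the log2(normalized count + 1) of a factor, or of the summed markers of a cell type, minus its mean over the 6 libraries (columns, controls left of the line). Colour is limited to ±1.5 and the number is printed in each cell. Control 1 is lowest for tal1 (−1.25), lmo2 (−0.92), myb (−0.81), gata2a (−0.88) and the erythroid sum (−1.79), and highest for gata2b (1.35) and the oocyte sum (6.22).

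MYB keeps progenitors of several lineages dividing and is also used by early red cells and lymphocytes. The myb (ENSDARG00000053666) values were 3438, 10250.1 and 4755 in the controls and 9299, 5699 and 5454 in the mutants. Control 2 and il7 mutant 1 were well above the other libraries, 1 from each genotype. The log2 change of myb was 0.26 (SE 0.45, 95% interval −0.81 to 1.33), with a limma adjusted p of 1.00, and was −0.08 without control 1 and 0.71 without control 2.

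RUNX1 is required for the first blood stem cells to emerge from endothelium, together with its partner CBFB. The runx1 (ENSDARG00000087646) values were low, at 37.0, 61.6 and 16.6 normalized counts in the controls and 28.3, 34.7 and 36.0 in the mutants, from 15 to 61 reads per library. The mutants were close together, with an SD of 4.12 (n = 3) against 22.5 in the controls, and lay inside the control range. The log2 change was −0.04 (SE 0.58, 95% interval −1.43 to 1.35), with a limma adjusted p of 1.00. Its sign turned with single libraries, from −0.53 when control 3 was left out to 0.38 for control 2, 0.06 for il7 mutant 1 and 0.02 for control 1. The partner gene cbfb stood at 1579, 2329 and 1733 in the controls and at 1619.7, 2047 and 1457 in the mutants. The paralogue runx3, known from T cells and natural killer cells, was lower in each mutant library (317, 206 and 321) than in any control (844, 449.7 and 343), with a log2 change of −0.88 (SE 0.41) and a limma adjusted p of 1.00. The change was −0.51 without control 1 and −1.16 without control 3.

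The homeobox factor MEIS1 is a cofactor of HOX proteins in stem cells and also acts in many tissues outside blood. Of the 9 factors meis1b (ENSDARG00000012078) varied least, from 941 to 1297 normalized counts, and its SD over the 6 libraries was 0.18 log2 units against a median of 0.52 over all fitted genes. It stood at 941, 1127 and 1291 in the controls and 1297, 1126 and 1021 in the mutants. The log2 change of 0.04 (SE 0.22) had the narrowest interval of the 9, from −0.49 to 0.57. Single libraries turned its sign, with −0.08 without control 1 and −0.05 without il7 mutant 1. Its paralogue meis1a had 198, 168 and 172 in the controls and 160.3, 159.6 and 158 in the mutants, a log2 change of −0.16 (SE 0.27).

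GFI1 represses transcription and restrains the division of stem cells, and its zebrafish counterpart gfi1aa acts in early red cells. The gfi1aa (ENSDARG00000020746) values were 23.6, 19.2 and 20.0 in the controls and 53.0, 26.8 and 23.0 in the mutants, from 18 to 45 reads. In il7 mutant 1 the count was above all other libraries, whereas il7 mutant 3 fell within the control range. The log2 change was 0.60 (SE 0.51, 95% interval −0.63 to 1.82), with a limma adjusted p of 1.00, and 0.24 without il7 mutant 1. The paralogues gfi1ab and gfi1b had log2 changes of −0.08 (SE 0.35) and −0.30 (SE 0.57).

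**Figure D4:**
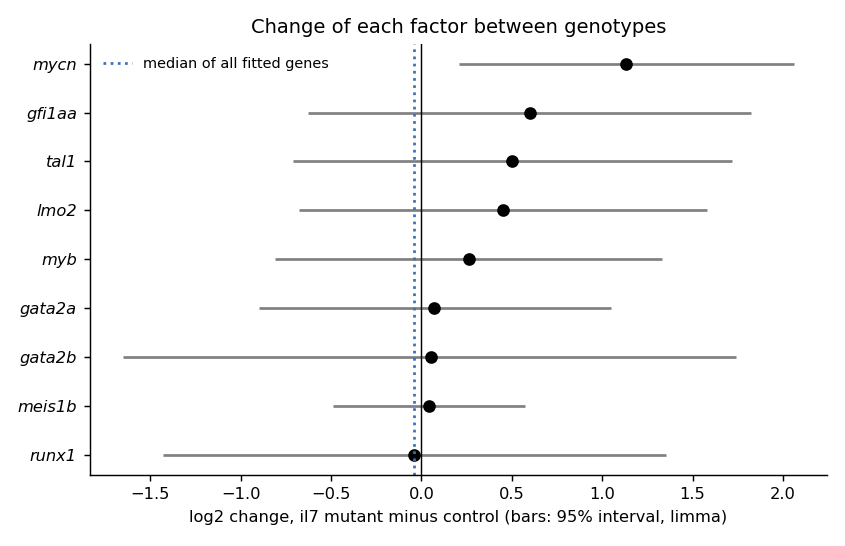
Log2 change of each factor, il7 mutant minus control, on the log2(normalized count + 1) scale (points) with its 95% interval from limma (bars). The dotted line is the median of all fitted genes (−0.04). Only the interval of mycn, from 0.21 to 2.06, leaves out 0, before adjustment over all genes.

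The extremes were shared among several factors. Control 1 was the lowest library for 5 of the 9 factors and il7 mutant 1 the highest for 5 of the 9. No share over all fitted genes stands beside these counts. Control 1 was also lowest for the erythroid, thrombocyte, endothelial, kidney tubule and neutrophil sums, and highest for the oocyte and cell cycle sums. Its low place is thus not particular to the factors. The SD over all 6 libraries ranged from 0.18 for meis1b to 0.88 for gata2b, with a median of 0.60 log2 units against 0.52 over all fitted genes.

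The wider set of partner and paralogue factors held 50 symbols, of which 12 matched no feature. Among the unmatched were ldb1a, ldb1b, lyl1, myca and mycb. The matched genes showed no common direction. Of 37 fitted features, 19 had a positive and 18 a negative log2 change, against 45.9% positive among all fitted genes. The median was 0.06, against −0.04 over all fitted genes. The mutants lay wholly above the controls for 2 of 37 (hhex and hoxa9b), against 3.51% of all fitted genes, and wholly below for 3 of 37 (mych, runx3 and meis1a), against 4.44%. In limma 0 were called. At an unadjusted limma p under 0.05, 1 of 37 was higher (hhex), against 1.36% of all fitted genes, and 1 of 37 lower (mych), against 2.12%. The E proteins that pair with TAL1, encoded by tcf3a, tcf3b and tcf12, had log2 changes of −0.12 (SE 0.43), 0.28 (SE 0.25) and −0.30 (SE 0.26). The ETS factors fli1 and erg, which share target regions with the GATA2 and TAL1 group, were at −0.09 (SE 0.22) and −0.13 (SE 0.21). The zinc finger factors zbtb16b and zbtb16a had log2 changes of 1.47 (SE 0.93) and 1.20 (SE 0.90). Their spread was wide, with 138 to 1892 normalized counts of zbtb16b in the controls and 951 to 2397 in the mutants. For zbtb16a the range was 721 to 7817 in the controls and 3017 to 4874 in the mutants, so the highest library was a control. The authors' deposited table lists log2 fold changes of 0.88 for zbtb16b and 0.34 for zbtb16a. The stem cell factor mecom had 107, 173 and 92.1 in the controls and 141, 331 and 201 in the mutants, a log2 change of 0.82 (SE 0.44) with overlapping groups, which was 0.49 without il7 mutant 2 and 1.10 without il7 mutant 1. Without both oocyte-rich libraries 17 of 37 were positive, with a median of −0.01, against 48.2% and −0.02 over all fitted genes.

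Receptors and niche ligands of progenitors were likewise not called. Of 23 listed symbols 4 matched no feature, namely cxcr4a, cxcr4b, notch1a and notch1b. Of 16 fitted genes, 11 had a positive change and 5 a negative one, against 45.9% positive among all fitted genes. The median was 0.07, against −0.04 over all fitted genes. In either direction 0 of 16 lay apart, against 3.51% of all fitted genes wholly above and 4.44% wholly below. Without both oocyte-rich libraries 6 of 16 were positive, against 48.2% of all fitted genes. The 4 with the smallest limma p were ligands and adhesion genes of the niche. The chemokine genes cxcl12a and cxcl12b, whose product holds stem cells in the marrow, had log2 changes of 0.42 (SE 0.31) and 0.33 (SE 0.34), the latter at −0.01 without control 1 and 0.64 without control 3. The adhesion genes vcam1a and vcam1b had 1.21 (SE 0.76) and 0.41 (SE 0.28). With 1 library left out, cxcl12a ranged from 0.21 (without control 1) to 0.65 (without control 2). The range was 0.60 (without il7 mutant 1) to 1.68 (without control 1) for vcam1a, and 0.26 (without il7 mutant 1) to 0.65 (without il7 mutant 2) for vcam1b. The cxcl12a values were 26163, 47926 and 33464 in the controls and 54107, 35429.6 and 52190.2 in the mutants, which overlap. The receptor genes kita and mpl, which receive the growth factors of stem cells and thrombocytes, had −0.16 (SE 0.42) and 0.13 (SE 0.34).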

How the data were processed

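The libraries were stranded and made from total RNA after ribosomal RNA removal, per the labels' protocols. The build GRCz10 and the tools DESeq2 1.14.1, featureCounts 1.5.2 and STAR 2.5.3a are listed, without roles, in the submitters' processing notes. How shared and overlapping reads were counted is not stated there, so close paralogues are uncertain. The authors deposited, as signal for each gene, normalized counts. Within 1e-08, each library's values were whole multiples of 1 step, from which reads per gene were inferred. That inference did not pass its check in 3 libraries, so it enters no test and serves only for read numbers and their Poisson intervals. The authors' deposited table supplied unshrunken log2 fold changes and p-values, and its Wald score was not used.

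Symbols were matched without regard to case to a table of gene names, then to older RefSeq names standing on 1 feature. Genes with a mean of at least 10 were fitted by limma 3.58.1 (R 4.3.3), with a trend in the variance, on log2 of the normalized count + 1, with Benjamini-Hochberg adjustment over all fitted genes at 0.05. This scale understates changes of low genes. The steps were tested on simulated data, in which the changed genes had higher counts and larger changes than mycn, runx1 and gfi1aa have here. That test does not show whether changes as small as those of the factors would be called.

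Members and lists were chosen with earlier results of these data known, and the liver markers were added after the values were seen. Named were all members, il7, the 4 genes of smallest p in the partner and the receptor lists, and the 2 genes nearest in pattern to the 3 most variable members. Genes named beside these were chosen for their relation to a member or the size of their change, after their values were seen.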

Additional observations from a re-analysis of the deposited data

How the results depend on the processing

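In all 17 alternatives, limma called 0 genes and 0 members. They changed scaling, filter, pseudocount or model, or left out libraries. The planned count tests on recovered reads were not run, since the recovery did not pass its check in 3 libraries. The changes of mycn, tal1, lmo2 and gfi1aa kept a positive sign in every alternative that fitted them. With array quality weights gata2a was at −0.09. Without both oocyte-rich libraries gata2a was at −0.19 and meis1b at −0.07. With quantile normalization runx1 was at 0.06. Leaving out 1 library gave ranges of −0.35 to 0.31 for gata2a, −0.58 to 0.73 for gata2b, −0.08 to 0.15 for meis1b, −0.08 to 0.71 for myb and −0.53 to 0.38 for runx1. The cause was not tested. The deviations of same-numbered libraries from their group means correlated at −0.511, −0.398 and 0.507. The highest correlation, 0.732, was between control 1 and il7 mutant 2, both oocyte-rich. With 3 libraries per group and this contrast in oocyte transcripts, the correlations cannot show whether the numbers pair the libraries. With the replicate block the mycn change was 1.13 with an SE of 0.50 and an unadjusted limma p of 0.0764, and no adjusted call changed. Depth limits runx1, gfi1aa and mycn, which had under 100 reads in each library.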
